A study of Mus musculus with 6 samples.

Results

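The genes described here are 10 that mast cells and basophils use for their granules and for binding immunoglobulin E (IgE): the proteases Mcpt1, Mcpt2, Mcpt4, Mcpt8, Cma1, Cpa3 and Tpsb2, the IgE receptor chains Fcer1a and Ms4a2, and the histamine-forming enzyme Hdc. They were chosen by name, with earlier results of these data known. All 10 were among the 19938 genes measured, each through 1 probe set linked to that gene alone. 6 arrays of mouse RNA were compared, 2 for each of 3 populations, and cells of every population carried the NUP98-HOXB4 fusion, a protein that keeps blood progenitors growing in culture. HSC cells were bone marrow cells expanded in culture with IL6 and SCF and stand in the design for undifferentiated progenitors. ProT cells were such cells grown with IL7 and DLL4, a ligand of the Notch1 receptor, which turns them towards the T cell lineage. DP cells were double positive thymocytes (carrying CD4 and CD8) that formed after ProT cells were injected into Rag2-/- mice, hosts that cannot make mature T or B cells of their own but keep other blood cells. The labels do not give the animals' age, the number of donors or hosts, or whether replicates came from separate cultures, so the p-values rest on a spread among arrays that could be purely technical.

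Mast cells store proteases with serglycin in cytoplasmic granules and release them when antigen crosslinks IgE on the high-affinity receptor. In the mouse, the chymases Mcpt1 and Mcpt2 are typical of mast cells of mucosal surfaces, and Mcpt4, Cma1 (also called mMCP-5), the tryptase Tpsb2 (mMCP-6) and the carboxypeptidase Cpa3 are typical of connective tissue mast cells, while Mcpt8 marks basophils. The receptor consists of the IgE-binding alpha chain (Fcer1a), the signal-amplifying beta chain (Ms4a2) and the gamma chain (Fcer1g), which other Fc receptors share.

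Promoter sequences are shown because the chymase genes Mcpt1 and Mcpt4 moved together by large amounts, Fcer1a and Cpa3 moved in the same direction on other chromosomes, and the related gene Cma1 moved little. Each is the stretch of 250 bases before the gene's start from RefSeq on GRCm38.p6, written 5′ to 3′ on the strand of the gene: Mcpt1 at chr14:56017714-56017963 (plus strand), Mcpt4 at chr14:56062311-56062560 (minus strand), Cma1 at chr14:55944676-55944925 (minus strand), Cpa3 at chr3:20242182-20242431 (minus strand) and Fcer1a at chr1:173227230-173227479 (minus strand). Capitals mark GATAA or, on the other strand, TTATC, the core letters read by GATA factors, which mast cells depend on.
Mcpt1: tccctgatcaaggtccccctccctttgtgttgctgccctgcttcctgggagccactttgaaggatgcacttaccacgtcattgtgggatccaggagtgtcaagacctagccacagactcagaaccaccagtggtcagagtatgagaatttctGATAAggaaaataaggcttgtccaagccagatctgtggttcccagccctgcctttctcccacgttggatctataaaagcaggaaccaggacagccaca
Mcpt4: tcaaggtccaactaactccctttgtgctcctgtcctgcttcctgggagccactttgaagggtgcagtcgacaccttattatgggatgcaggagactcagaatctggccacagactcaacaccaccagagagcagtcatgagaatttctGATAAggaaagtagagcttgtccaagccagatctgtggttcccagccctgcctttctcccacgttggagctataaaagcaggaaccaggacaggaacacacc
Cma1: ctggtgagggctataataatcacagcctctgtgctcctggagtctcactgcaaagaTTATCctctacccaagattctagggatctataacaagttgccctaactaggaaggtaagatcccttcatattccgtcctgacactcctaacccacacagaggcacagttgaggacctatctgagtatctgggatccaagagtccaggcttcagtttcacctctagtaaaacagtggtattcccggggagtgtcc
Cpa3: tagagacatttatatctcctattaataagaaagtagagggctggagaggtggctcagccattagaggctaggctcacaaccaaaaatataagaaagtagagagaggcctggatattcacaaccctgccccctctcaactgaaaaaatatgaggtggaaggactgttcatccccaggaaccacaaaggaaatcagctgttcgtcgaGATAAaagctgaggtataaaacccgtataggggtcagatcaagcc
Fcer1a: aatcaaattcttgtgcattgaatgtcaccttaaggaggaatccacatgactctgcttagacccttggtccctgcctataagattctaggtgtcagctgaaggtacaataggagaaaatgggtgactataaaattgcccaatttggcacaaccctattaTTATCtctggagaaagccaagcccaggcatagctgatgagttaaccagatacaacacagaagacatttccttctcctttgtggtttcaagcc
The table held such sequences for 8 of the 10 genes (not Mcpt2 and Tpsb2). GATAA stood on either strand in 6 of the 8 stretches, against 22.6% of all 32851 promoter stretches of that length. Hdc and Mcpt8 were without it, and Ms4a2 held it at 3 places. The RUNX letters TGTGGT (or ACCACA) stood in 5 of 8, those of Mcpt1, Mcpt4, Mcpt8, Cpa3 and Fcer1a, against 14% of all promoters, and the E-box letters CANNTG, which read the same on both strands, in 5 of 8, against 66.2%. None of these matches overlapped a match to another of the 3 motifs (0 overlaps). The Mcpt1 and Mcpt4 stretches were identical at 209 of 242 aligned bases (86.4%), with GATAA starting 98 and 102 bases before the start, while the other 27 pairs of the 8 genes shared between 55.1% and 67.5%. Because of that likeness, Mcpt1 and Mcpt4 are not independent counts for GATAA or the RUNX letters. The shares over all promoters were not matched for base composition. G and C made up between 38.8% (Ms4a2) and 51.6% (Mcpt1) of the 8 stretches. Enrichment was not tested, and these matches describe letters and are not measured binding.

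The array values are log2 signals after RMA, a background correction and normalization between arrays, and 1 unit is a 2-fold difference. A gene was called at an adjusted p below 0.05 in limma, which fits all genes together, and changes are log2 differences with their standard errors. The median over all genes and arrays was 7.17. Signals under it were not shown to be above background, so a fold against a mean that low is given as a lower bound (at least its size). Levels of different genes are not compared, since each probe set has its own response. Array medians lay between 6.73 and 6.91, and the replicate arrays correlated at 0.991 in HSC, 0.995 in ProT and 0.997 in DP (Pearson's r over all probe sets). As a check of the labels, T cell markers were examined, and Cd3g, Cd3e, Cd3d and Thy1 were called higher in ProT than in HSC and Cd4 and Cd8a higher in DP than in ProT. All 9 neutrophil markers had HSC means above 7.17, among them Elane (13.22) and Ngp (12.56). The name HSC is thus that of the design and not a measured purity.

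Most of the mast cell genes, 7 of 10, were highest in ProT cells, while Mcpt8, Ms4a2 and Hdc followed other courses. Of the 10 genes, 7 were called higher in ProT than in HSC, where 7.85% of all genes were called higher, and 1 was called lower, where 6.9% of all genes were. Between DP and ProT, 9 of 10 were called lower against 18.1% of all genes, and 0 were higher against 14.5%, with Hdc as the gene that did not pass. As many as 7 of the 10 genes passed both steps as highest in ProT, a shape that 4.17% of all genes had, and 0 were lowest in ProT, against 1.35%. The median log2 change of the 10 genes was 1.66 for ProT against HSC and -3.79 for DP against ProT, beside -0.0075 and 0.02 for all genes. These steps share the ProT arrays. Between DP and HSC, 4 of 10 were called lower (Mcpt8, Cpa3, Ms4a2 and Hdc) against 18.8% of all genes, and 0 higher against 16%. Against the mean of HSC and DP, ProT was called higher for 9 genes and lower for Hdc, where 11.8% and 9.17% of all genes were called. The 9 include Mcpt8 and Ms4a2, which were not called higher in ProT than in HSC. For Mcpt8 the ProT mean (8.49) was below the HSC mean (9.03). The count is thus not one of genes highest in ProT. RNA was taken from whole populations, so fewer cells of a type and less RNA per cell cannot be told apart.

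**Figure D1:**
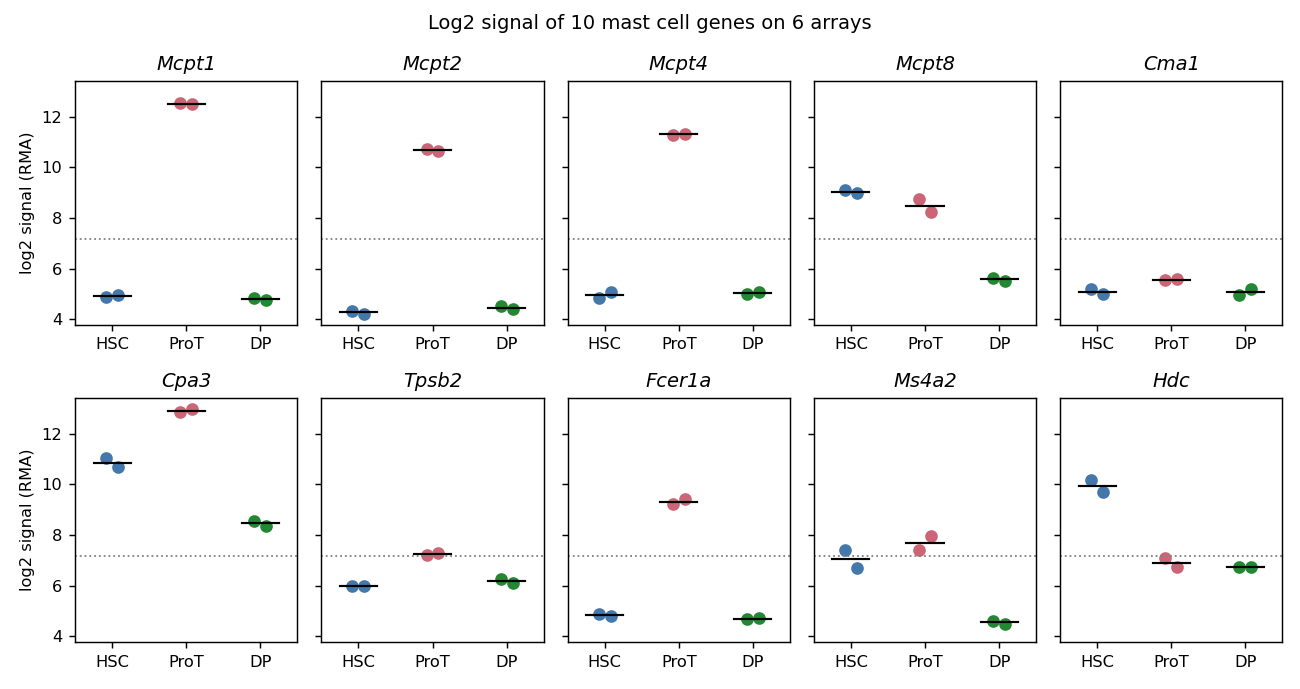
Log2 signal (vertical axis) of the 10 genes on each array of HSC, ProT and DP cells; points are arrays, black bars are means of 2 arrays, and the dotted line is the median of all gene values (7.17). Mcpt1, Mcpt2, Mcpt4 and Fcer1a stand far above that line in ProT cells and below it in the other populations, while Hdc is high in HSC cells.

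The chymases Mcpt1, Mcpt2 and Mcpt4 were higher in ProT than in HSC by more than 6 on the log2 scale. Mcpt1 had signals of 4.89 and 4.96 in HSC, 12.55 and 12.48 in ProT, and 4.83 and 4.74 in DP. Both ProT arrays stood far above the other 4, whose values lay within a narrow band. Mcpt1 was at least 193-fold higher in ProT than in HSC (log2 change 7.59 ± 0.08, adjusted p = 1.11e-06), and at least 213-fold lower in DP than in ProT (log2 change -7.73 ± 0.08, adjusted p = 1.08e-06). Mcpt2 read 4.34 and 4.22 in HSC, 10.72 and 10.65 in ProT, and 4.53 and 4.39 in DP. Its log2 changes were 6.40 ± 0.09 for ProT against HSC and -6.22 ± 0.09 for DP against ProT. Mcpt4, an enzyme that cleaves extracellular matrix proteins, followed the same course. Its signals were 4.85 and 5.09 in HSC, 11.28 and 11.32 in ProT, and 4.98 and 5.07 in DP, with log2 changes of 6.33 ± 0.10 for ProT against HSC and -6.28 ± 0.10 for DP against ProT. Between DP and HSC none of these 3 chymases passed: the differences were -0.14 for Mcpt1 (95% interval -0.33 to 0.05), 0.18 for Mcpt2 (-0.04 to 0.40) and 0.05 for Mcpt4 (-0.20 to 0.30). In each case the level order was ProT first, with HSC and DP not separated beyond their spread. The HSC and DP signals of these chymases lay below the median of all values and were not shown to be above background. The narrow intervals between HSC and DP thus say little about the transcripts. The 3 genes are close relatives, and how far their probe sets read each other's transcripts was not tested.

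The remaining chymase and the tryptase moved far less. Cma1 had 5.18 and 5.003 in HSC, 5.54 and 5.59 in ProT, and 4.96 and 5.198 in DP. The ProT arrays were the highest, but all 6 values were under the overall median of 7.17. Its log2 change for ProT against HSC was 0.47 ± 0.11 (adjusted p = 0.0416) and for DP against ProT -0.49 ± 0.11 (adjusted p = 0.0197). Both calls were lost under other settings: the first with a replicate block (adjusted p = 0.0673), at median centring, in a fit of only HSC and ProT, and without HSC replicate 2 or any ProT or DP array (adjusted p up to 0.136), the second without DP replicate 1 or either ProT array (adjusted p up to 0.111). Tpsb2 read 5.97 and 5.999 in HSC, 7.23 and 7.28 in ProT, and 6.26 and 6.09 in DP. The ProT arrays were again highest and lay just above the median of all values, at log2 changes of 1.27 ± 0.09 from HSC (at least 2.41-fold, adjusted p = 0.000407) and -1.08 ± 0.09 for DP against ProT (adjusted p = 0.000386). For DP against HSC, Cma1 differed by -0.01 (95% interval -0.29 to 0.26), and Tpsb2 by 0.19 (-0.02 to 0.40). These signals lay below the median of all values in both populations, so the intervals say little. Of 5 serine protease genes of the tryptase cluster fixed as its neighbours (Tpsab1, Tpsg1, Prss34, Prss28 and Prss29), 0 were called in any of the 3 comparisons. All 5 lay below 7.17 on every array and were not shown to be above background, so the lack of calls says little. Tpsab1, the tryptase most like Tpsb2, was at 5.46 and 5.55 in ProT against 5.65 and 5.42 in HSC, and the basophil protease gene Prss34 changed by -0.28 ± 0.27.

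Cpa3, a carboxypeptidase expressed early in the mast cell lineage, was already strong in HSC. Its signals were 11.03 and 10.70 in HSC, 12.87 and 12.97 in ProT, and 8.57 and 8.35 in DP. The 3 populations did not overlap, in the order ProT, HSC, DP. Cpa3 was 4.15-fold higher in ProT than in HSC (log2 change 2.05 ± 0.14, adjusted p = 0.000388), 21.9-fold lower in DP than in ProT (-4.45 ± 0.14, adjusted p = 1.42e-05) and 5.28-fold lower in DP than in HSC (-2.40 ± 0.14, adjusted p = 8.65e-05). Even in DP cells both arrays stayed above the median of all gene values.

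Mcpt8, the basophil protease, did not follow the other proteases of its family. It had 9.09 and 8.97 in HSC, 8.75 and 8.22 in ProT, and 5.64 and 5.51 in DP. HSC and ProT lay close together, and DP was well below both. The difference of ProT from HSC was -0.54 ± 0.18 (95% interval -0.98 to -0.11) and did not pass over all genes (adjusted p = 0.11), but without ProT replicate 1 it was -0.81 and passed (adjusted p = 0.0161). DP fell at least 7.54-fold below ProT (log2 change -2.91 ± 0.18, adjusted p = 0.000148) and at least 11.0-fold below HSC (adjusted p = 5.88e-05).

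**Figure D2:**
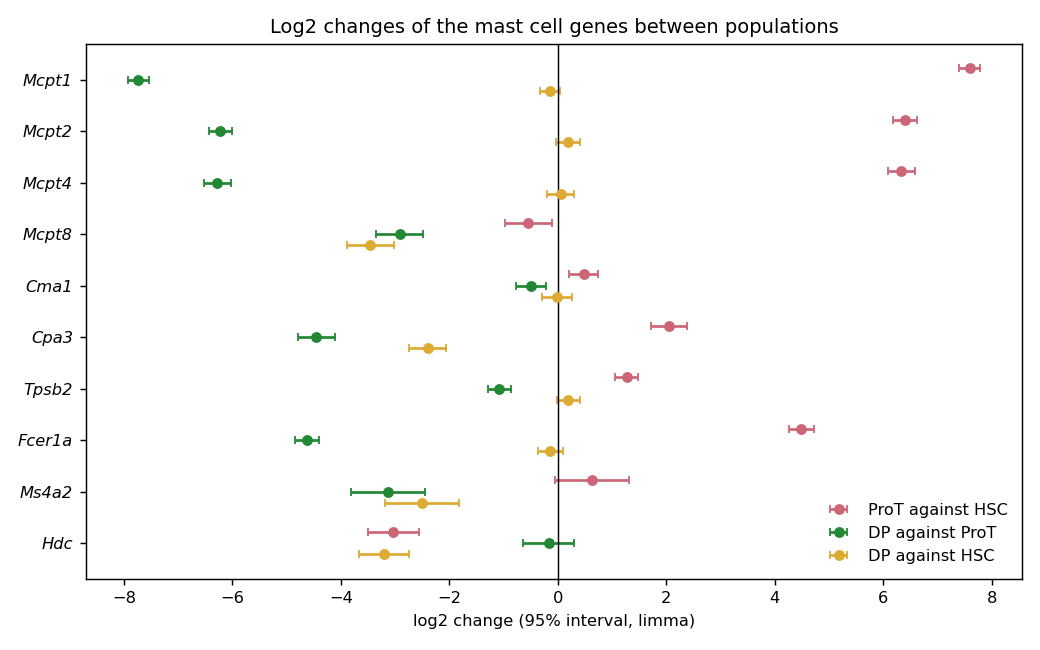
Log2 changes (horizontal axis) of the 10 genes for ProT against HSC, DP against ProT and DP against HSC, with 95% intervals from limma. Mcpt1, Mcpt2, Mcpt4 and Fcer1a have large opposite changes at the successive steps and intervals that include 0 for DP against HSC. Their DP and HSC signals lie below the median of all values. Hdc lies at -3.03 for ProT against HSC.

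The chains of the IgE receptor behaved differently from each other. Fcer1a, which binds IgE, had 4.87 and 4.81 in HSC, 9.23 and 9.43 in ProT, and 4.68 and 4.72 in DP. It was at least 22.4-fold higher in ProT than in HSC (log2 change 4.49 ± 0.09, adjusted p = 6.66e-06). In DP it was at least 24.7-fold lower than in ProT (-4.63 ± 0.09, adjusted p = 6.24e-06). DP and HSC differed by -0.14 (95% interval -0.37 to 0.09), both at signals below the median of all values, so that interval says little. Ms4a2 had 7.41 and 6.71 in HSC, 7.40 and 7.98 in ProT, and 4.62 and 4.50 in DP. HSC and ProT overlapped, and DP was lowest. Ms4a2 did not pass between ProT and HSC (0.63 ± 0.28, 95% interval -0.06 to 1.32, adjusted p = 0.228), although without HSC replicate 1 the change was 0.98 and passed (adjusted p = 0.0472). It fell at least 8.76-fold in DP against ProT (-3.13 ± 0.28, adjusted p = 0.000589) and differed from HSC by -2.50 ± 0.28. Fcer1g, the signalling gamma chain, had 12.53 and 12.70 in HSC, 12.60 and 12.64 in ProT, and 9.84 and 9.80 in DP. Its difference between ProT and HSC was 0.0049 ± 0.09, and it was 6.98-fold lower in DP than in ProT. Of the 3 chains, then, Fcer1a was the one called at the step into ProT.

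Genes of IgE receptor signalling, a list of kinases, adaptors and phosphatases that also holds Fcer1g, split into different courses. Of its 14 measured genes, 4 were called higher and 2 lower in ProT than in HSC (beside 7.85% and 6.9% of all genes). In DP against ProT 4 were higher and 8 lower (beside 14.5% and 18.1%). The median log2 changes were 0.01 and -0.50. Lat, the adaptor of both the IgE receptor and the T cell receptor, was 13.2-fold higher in ProT than in HSC (log2 change 3.72 ± 0.29), and rose by a further 1.84 ± 0.29 in DP. The Src family kinase Fyn (1.01 ± 0.08) and the phospholipase Plcg1 (1.01 ± 0.20), which T cells use as well, were also higher in ProT, and the scaffold Gab2 was lower (-0.60 ± 0.12). In DP against ProT the log2 changes were -3.72 ± 0.08 for the kinase Btk, -3.62 ± 0.11 for the phospholipase Plcg2, -3.46 ± 0.12 for the adaptor Lat2 and -2.96 ± 0.12 for Gab2, and all 4 passed. Syk, the first kinase recruited by the gamma chain, differed by -0.22 ± 0.09 between ProT and HSC and did not pass.

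Hdc was the 1 gene of the 10 called lower in ProT than in HSC. It had 10.18 and 9.70 in HSC, 7.09 and 6.72 in ProT, and 6.73 and 6.75 in DP. HSC was high, and the values of ProT and DP, all below the median of all gene values, overlapped. Hdc was at least 8.20-fold lower in ProT than in HSC (log2 change -3.03 ± 0.19, adjusted p = 0.000293), and at least 9.21-fold lower in DP than in HSC (adjusted p = 0.000101). DP against ProT gave -0.17 ± 0.19 (95% interval -0.64 to 0.30, adjusted p = 0.581). Of 6 measured genes for histamine breakdown, transport and reception, 1 was called higher in ProT than in HSC, the receptor gene Hrh4 (0.52 ± 0.09), and 1 lower, Hnmt, which methylates histamine (-0.34 ± 0.07), both at means below the median of all values. Over all genes 7.85% were called higher and 6.9% lower, so in a list of 6 these counts are no result about the list. Slc18a2, which loads amines such as histamine and serotonin into granules and stands in the granule list, had 9.20 and 9.38 in ProT against 8.83 and 7.79 in HSC, a change of 0.98 ± 0.32 that did not pass.

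Of the 10 genes, 5 lie in 1 cluster on chromosome 14 together with cathepsin G and the granzymes, in a gene order taken from RefSeq (GRCm38.p6). Between the flanking genes Sdr39u1 and Atp12a stand 15 protein-coding genes, of which 13 were measured; Cma2 and Mcpt9 were not analysed here. In ProT against HSC 6 of the 13 were called higher, 1 lower and 6 did not pass (beside 7.85% of all genes higher and 6.9% lower). The higher genes were not one continuous block. Starting at Cma1, the order runs through Mcpt1, Mcpt2 and Mcpt4, with changes above 6 on the log2 scale, to Mcpt8 (-0.54 ± 0.18) and to Ctsg, the neutrophil protease cathepsin G, which was lower in ProT (-1.98 ± 0.10). Gzme, Gzmd, Gzmg, Gzmn and Gzmf follow, with changes between -0.02 and 0.18, none of which passed and all with means below the median of all values. At the far end Gzmc (5.16 ± 0.20) and Gzmb (7.86 ± 0.08), a protease of cytotoxic lymphocytes, were higher. Gzmb had 13.55 and 13.52 in ProT against 5.65 and 5.69 in HSC. In DP against ProT, Gzmb changed by -7.48 ± 0.08, Gzmc by -5.42 ± 0.20 and Ctsg by -4.13 ± 0.10.

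**Figure D3:**
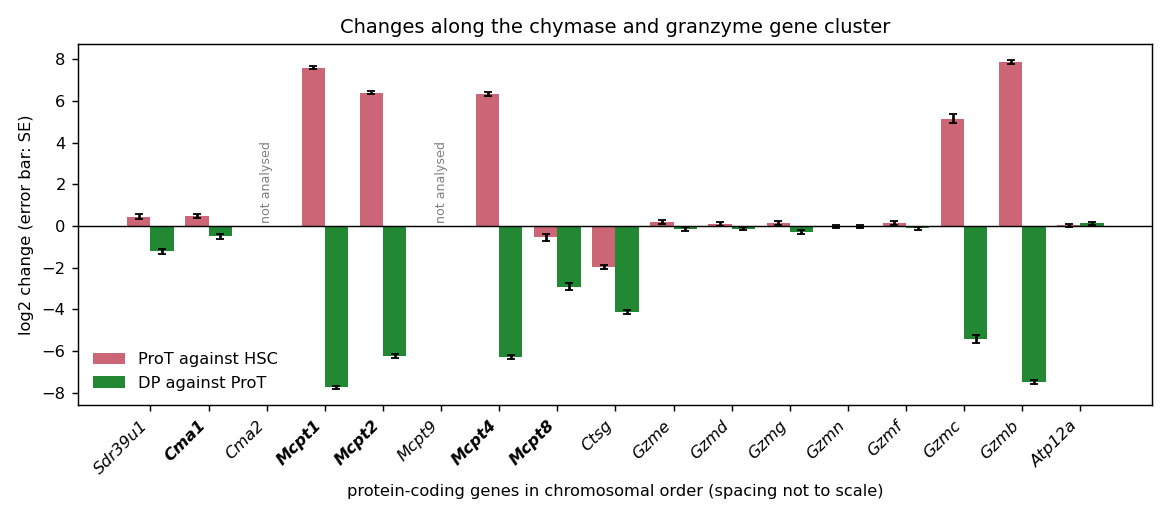
Log2 changes (vertical axis, bars from 0, error bars SE from limma) for ProT against HSC and DP against ProT of the protein-coding genes from Sdr39u1 to Atp12a in chromosomal order; bold names are the 5 mast cell genes in the cluster, and spacing is not to scale. Tall opposite bars stand at Mcpt1, Mcpt2, Mcpt4, Gzmc and Gzmb, with short bars from Gzme to Gzmf between them.

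Genes for granule contents and lipid mediators were partly higher in ProT and mostly lower in DP. Of 13 measured genes, 3 were called higher and 1 lower in ProT than in HSC (beside 7.85% and 6.9% of all genes). In DP against ProT 0 were higher and 11 lower (beside 14.5% and 18.1%). The median log2 changes were 0.0073 and -1.42. Alox5, which starts leukotriene synthesis, had 11.14 and 10.84 in ProT against 8.22 and 6.95 in HSC, a log2 change of 3.40 ± 0.39. Hpgds, the hematopoietic prostaglandin D synthase (2.20 ± 0.40), and Rab27b, a GTPase of granule release (1.80 ± 0.30), were also higher, whereas Alox5ap, the partner of Alox5, was lower (-0.81 ± 0.09). Ptgs2 (-2.34 ± 0.63) and the granule membrane protein Cd63 (1.83 ± 0.47) did not pass. In DP against ProT the genes that fell included Alox5 (-4.96 ± 0.39), Cd63 (-3.77 ± 0.47), Slc18a2 (-2.90 ± 0.32) and Alox5ap (-2.88 ± 0.09).

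Surface and cytokine genes of mast cells and basophils had 6 of 12 measured genes higher and 1 lower in ProT than in HSC (beside 7.85% and 6.9% of all genes). In DP against ProT 8 were lower and 0 higher (beside 18.1% and 14.5%). The median log2 changes were 0.65 and -1.79. The receptor gene Il9r, whose ligand promotes mast cell growth and acts on T cells too, changed by 2.84 ± 0.11 in ProT against HSC. The integrin genes Itgb7 (2.67 ± 0.23), needed for mast cell progenitors to enter the gut, and Itga2 (2.30 ± 0.25) rose with the cytokine gene Il13 (2.17 ± 0.19), which T cells can also make. Mrgprb1, a receptor gene of the family that includes the connective tissue mast cell receptor Mrgprb2, did not pass (0.04 ± 0.07). Its signals lay below the median of all values on every array, so the lack of a call says little. The gene that fell was Cd200r3, a basophil and mast cell receptor, at 5.06 and 5.01 in ProT against 5.65 and 5.55 in HSC, all below the median of all values. Cysltr1, a leukotriene receptor, did not pass in ProT against HSC (1.59 ± 0.45), and fell by 4.37 on the log2 scale in DP against ProT.

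Regulators of mast cell development were called lower more often than higher. Of 16 measured genes, 2 were called higher and 7 lower in ProT than in HSC (beside 7.85% and 6.9% of all genes). In DP against ProT 1 was higher and 9 lower (beside 14.5% and 18.1%). The median log2 changes were -0.54 and -0.59. The counts of 2 and 1 called higher are no result about the list. The higher and lower genes named next are those of ProT against HSC. The higher ones were Bhlhe40 (1.13 ± 0.22), a repressor that basophils and mast cells express, and Kit, the receptor for SCF (0.72 ± 0.10). Among the lower ones were Cebpa, a granulocyte factor (-3.06 ± 0.14), Csf2rb, the shared receptor chain for IL3 and related cytokines (-1.22 ± 0.20), and Mitf, a mast cell transcription factor (-1.04 ± 0.15). Gata2, the GATA factor that mast cells depend on, had 9.90 and 9.34 in ProT against 10.94 and 10.05 in HSC and did not pass (-0.87 ± 0.37, adjusted p = 0.21). Gata1 differed by 0.05 ± 0.25. In DP against ProT, Gata2 fell by 2.96 and Kit by 3.26 on the log2 scale.

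**Figure D4:**
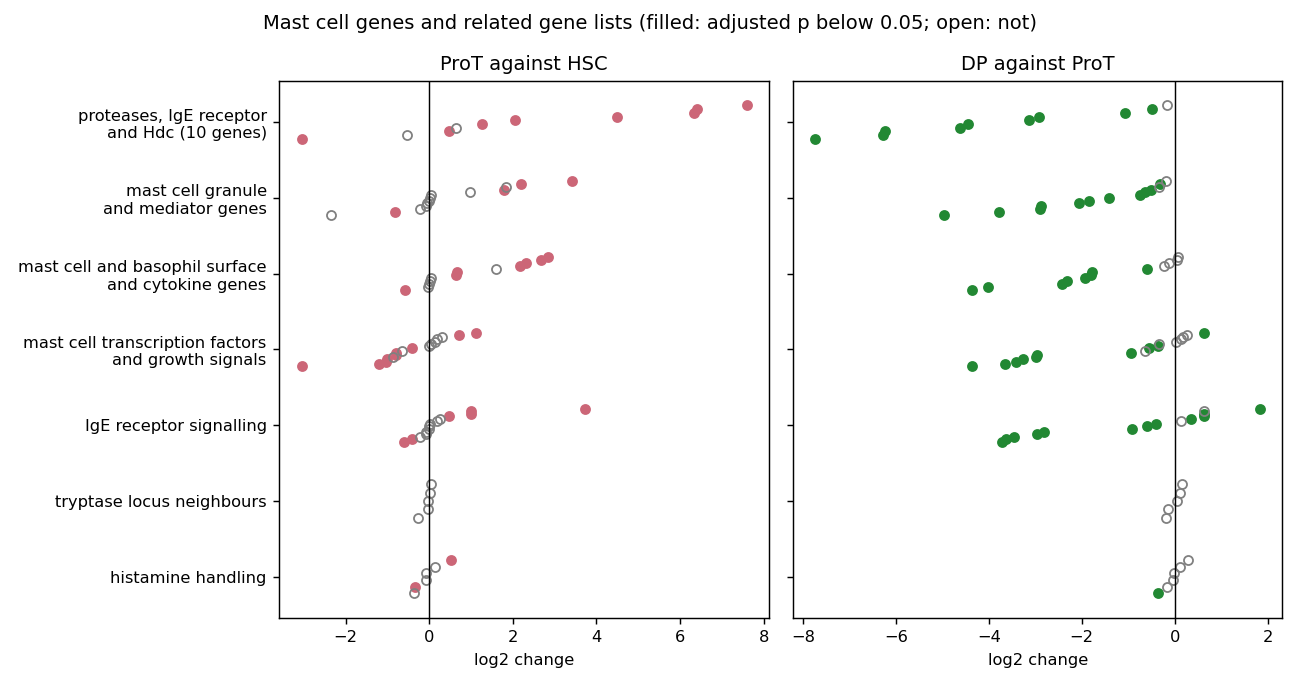
Log2 changes (horizontal axis) for ProT against HSC (left) and DP against ProT (right) of the 10 genes and of the related gene lists, 1 point a gene; filled points passed at an adjusted p below 0.05 and open points did not. The 10 genes reach from -3.03 to 7.59 in ProT against HSC. The tryptase neighbours lie near 0 in both panels, at signals below the median of all values on every array.

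Markers of other cells also differed between the populations, and their part in the results above was not tested. Over all genes, 7.85% were called higher and 6.9% lower in ProT against HSC. The shares were 14.5% and 18.1% in DP against ProT, and 16% and 18.8% in DP against HSC. Of 9 NK cell markers 6 were called higher in ProT than in HSC and 0 lower, among them Gzma, Il2rb, Ncr1 and Klrd1. The summed linear signal of the list was 7210 and 6941 in HSC, 21014 and 20456 in ProT, and 3514 and 3380 in DP. Strong probe sets weigh most in such a sum, so it does not describe the list as a whole. In ProT these were Gzma (mean log2 signal 13.08), Nkg7 (12.89) and Il2rb (11.65), while 2 of the 9 markers lay below the median of all values on every array. Most of the HSC sum was that of Nkg7, at 12.74 and 12.68 on the log2 scale in HSC, 12.87 and 12.91 in ProT, and 10.45 and 10.27 in DP. In DP against HSC 7 of the 9 markers were called higher and 1, Nkg7, lower (median log2 change 1.13). All 9 neutrophil markers were lower in ProT than in HSC (9 of 9), with sums of 1193 to 2933 in ProT against 36707 to 40856 in HSC. Of 5 eosinophil markers 0 were higher and 3 lower in ProT, and 4 of the 5 lay below the median of all values on every array. Of 7 macrophage markers 1 was higher in ProT (Adgre1) and 1 lower (Csf1r). In DP against ProT 4 were higher, including C1qb (log2 change 3.13 ± 0.21) and C1qc (2.31 ± 0.08). The 2 lower ones were Adgre1 (-3.98 ± 0.31) and Cd68 (-1.46 ± 0.11). Of 5 B cell markers 1 was higher and 1 lower in ProT than in HSC, and 4 were higher in DP than in ProT. Among those 4, the 3 markers Cd79a, Ms4a1 and Pax5 lay below the median of all values on every array. They were not shown to be above background. Cd79b, also among the 4, changed by 0.50 ± 0.11. For the macrophage and B cell lists, the counts of 1 in ProT against HSC are no result about the list.

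Genes with the most similar course were sought by the root mean square difference over the 6 arrays after centring each gene on its own mean. This is a description without a test. The values were not scaled, so the distance also holds the size of a change, which depends on each probe set's response. A smaller distance is thus not by itself a closer shape. Nearest to Mcpt1 was Gzmb (0.21 log2 units), followed by its neighbours Mcpt4 (0.65) and Mcpt2 (0.65) and by Cyp11a1, which starts steroid synthesis (0.89). Nearest to Fcer1a were Tph1 (0.10), the rate-limiting enzyme of serotonin synthesis, known from mast cells, Akr1c12 (0.14), Cdh17 (0.17) and Socs2 (0.19), a cytokine feedback inhibitor. Tph1 averaged 6.19 in HSC, 10.77 in ProT and 6.20 in DP. Cpa3 was nearest to Tgm2, a transglutaminase (0.23), Cd200r4 (0.29), Clnk, an adaptor of immunoreceptor signalling in mast cells (0.30), and S100a4 (0.35). For Hdc the nearest were Dach1 (0.11), Padi4, a histone-citrullinating enzyme of neutrophils (0.11), Cebpa (0.13) and Wwc2 (0.16), all high in HSC. Cebpa averaged 9.69 in HSC, 6.63 in ProT and 6.65 in DP.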

How the data were processed

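Total RNA of 6 samples was hybridized to Affymetrix arrays as biotinylated cRNA, per the labels' protocols. The authors deposited 1 table of log2 signals for 35556 probe sets, made with RMA and Partek per the submitters' processing notes. For RMA and Partek, versions and settings: not given in the sources used here. Scanner files were not used here. From these values, the 21789 probe sets linked to exactly 1 gene gave 19938 genes, taking the probe set with the highest mean, and 1621 with several genes and 12146 with none were left out. Gene names came from GEO's platform table and were matched to RefSeq for 21698 probe sets. All 6 arrays entered 1 limma 3.58.1 fit (R 4.3.3) with a mean per population and eBayes with a constant prior (3 residual and 2.83 prior degrees of freedom), with Benjamini-Hochberg adjustment over all genes, and no filter on signal. The step was tested on simulated data. The number of arrays limits the precision. The 10 genes and 13 further lists (115 of 124 entries measured) were chosen with earlier results of these data known. Named from each list and comparison were up to 4 called genes and 2 not called, by size, with Fcer1g, Gzmd, Gzmn, Prss28 and Prss29 added after their values were seen. Deviations of same-numbered replicates correlated at 0.0584 (ProT and HSC), -0.0428 (DP and ProT) and -0.0222 (DP and HSC), so the numbers were not used as pairs. Alternatives were other normalizations, a filter on dim genes, other probe set rules, priors and thresholds, fits of only the populations compared, a replicate block, and leaving out each array. Python 3.11.15 with pandas 2.3.3 prepared the tables.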

Additional observations from a re-analysis of the deposited data

How the results depend on the processing

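Of 586 values of the 10 genes under alternatives, 564 kept their direction and their side of the threshold. Of the rest, 14 (all of Cma1) fell short of it, 2 passed it and 6 changed sign, none of the 6 in a change that had passed. Part of this agreement was fixed beforehand. Each of the 10 genes has 1 probe set, so the other probe set rules could not alter their log2 changes. Leaving out an array of the population not compared repeats the fit of only the populations compared, so such values are not separate checks. The sign changes were those of Cma1 for DP against HSC (0.0201 with median centring, and from -0.13 to 0.10 when single arrays were left out), of Mcpt4 for DP against HSC (-0.0056 with cyclic loess and -0.064 to 0.17 when single arrays were left out) and of Hdc for DP against ProT (-0.35 to 0.013 when single arrays were left out). The number of the 10 genes called higher in ProT than in HSC lay between 6 and 8 when single arrays were left out, and the number lower between 1 and 2. Without ProT replicate 1, 2 were lower, Mcpt8 and Hdc. For DP against ProT 8 to 9 were lower and 0 higher, for DP against HSC 4 lower and 0 higher, 6 to 8 were highest in ProT and 0 lowest, and against the midpoint 8 to 9 were higher and 1 lower. With a replicate block 6 were higher in ProT than in HSC, Cma1 being lost (adjusted p = 0.0673), and no other call of the 10 genes changed. Over all genes, the replicate block gave 1534 higher and 1311 lower in ProT. Leaving out single arrays gave 1013 to 1988 higher and 779 to 1994 lower for ProT against HSC, 1467 to 3282 and 2047 to 4126 for DP against ProT, and 1940 to 3188 and 2361 to 3862 for DP against HSC. The lowest of these counts came without a DP array in each comparison. Without ProT replicate 1 the lower count of ProT against HSC was 854. A fit of only HSC and ProT gave 1013 higher and 779 lower. At an adjusted p below 0.01, ProT against HSC had 891 higher and 644 lower, DP against ProT 1645 and 2396, and DP against HSC 2060 and 2720. With at least a 2-fold change the counts were 692 and 538, 879 and 1420, and 1021 and 1727. Median centring moved the median of all genes in DP against ProT to 0.134 and gave 4522 higher (60.2% of calls, against 44.6%), and 42% higher for ProT against HSC against 53.2%. Quantile normalization gave 54.4% higher for DP against ProT, and 53.8% for DP against HSC against 46%. The filter on dim genes kept 9 of the 10 genes, without Cma1. Causes of these shifts were not tested. Signals below the median of all values were not shown to be above background, so folds against them are lower bounds.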
